A study of Homo sapiens with 9 samples.

Results

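Frozen THP-1 cells were set against fresh THP-1 cells by the labels of their arrays, 3 frozen and 3 fresh arrays out of 9 in the series. THP-1 is an established human leukemia line of the monocyte lineage that grows in suspension. The frozen state is, from the series title, RNA taken from cell stocks kept in liquid nitrogen. The fresh state is the same line without that step, and the remaining 3 arrays hold replated cells. No genotype, agent or treatment is labelled for any state, and all states share 1 cell line, so the arrays show nothing of other cells. The design text calls the 3 arrays of a state biological replicates without saying how they were separated, and times of freezing, thawing and culture, the freezing medium and the chip of each array are not given. A p-value here therefore weighs a difference against the spread of arrays within states, pooled over all 9 arrays, and that spread may be technical. The comparison asks how far the transcripts recovered from frozen stocks differed from those of cells in culture.

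Bead-array probes were kept where their detection score, which is 1 minus the chance of so bright a negative control, was above 0.95 on at least 3 of these 6 arrays. That left 17413 of 48803 probes, and 13906 of the kept probes named 1 of 10669 genes. A gene was read from its brightest kept probe. Values are normalized intensities on the array's linear scale after background correction and quantile normalization, and differences are frozen minus fresh on the log2 scale. A call is an adjusted p under 0.05 in the limma fit over all 9 arrays, with Benjamini-Hochberg adjustment over all kept probes. Arrays read pooled RNA, so a change in every cell and a larger change in some cells cannot be told apart.

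Immediate early genes are switched on within minutes of a stimulus from factors already present in the cell, without new protein synthesis. They encode AP-1 subunits (FOS and JUN proteins and their partners), EGR, NR4A and KLF transcription factors, and inhibitors that shut the signal down, such as the MAP kinase phosphatase DUSP1. Their transcripts are short lived, which makes their level a readout of recent events such as growth factor exposure, mechanical handling or cell stress. Monocytes and their leukemic relatives use these genes early in activation and differentiation.

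The promoters of the 4 genes below are shown because these genes were among the 5 with the largest differences and moved together. Each line gives the 250 bases before the annotated start from RefSeq (GRCh38.p14), on the gene's own strand, DUSP1 at chr5:172771196-172771445 (minus), FOSB at chr19:45467746-45467995 (plus), JUN at chr1:58784048-58784297 (minus) and FOS at chr14:75278578-75278827 (plus). Capitals mark matches on either strand to TGACG, the core of the cAMP response element bound by CREB and ATF factors, including its full form TGACGTCA, and to TATAAA, the TATA box.
DUSP1: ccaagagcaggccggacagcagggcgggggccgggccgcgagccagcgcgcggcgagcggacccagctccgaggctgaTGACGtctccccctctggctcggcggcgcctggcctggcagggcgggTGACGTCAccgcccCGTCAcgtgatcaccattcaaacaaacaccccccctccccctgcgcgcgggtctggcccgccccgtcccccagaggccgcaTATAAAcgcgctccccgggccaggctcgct
FOSB: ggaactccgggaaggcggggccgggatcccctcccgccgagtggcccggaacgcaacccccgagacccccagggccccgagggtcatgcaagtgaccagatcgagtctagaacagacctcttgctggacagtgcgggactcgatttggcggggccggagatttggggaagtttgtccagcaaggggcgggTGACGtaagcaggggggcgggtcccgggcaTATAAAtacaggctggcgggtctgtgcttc
JUN: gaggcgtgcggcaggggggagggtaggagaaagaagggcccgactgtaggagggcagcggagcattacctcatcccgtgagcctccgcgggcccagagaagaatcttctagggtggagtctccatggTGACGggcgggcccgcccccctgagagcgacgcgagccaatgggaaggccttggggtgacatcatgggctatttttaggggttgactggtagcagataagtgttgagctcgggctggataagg
FOS: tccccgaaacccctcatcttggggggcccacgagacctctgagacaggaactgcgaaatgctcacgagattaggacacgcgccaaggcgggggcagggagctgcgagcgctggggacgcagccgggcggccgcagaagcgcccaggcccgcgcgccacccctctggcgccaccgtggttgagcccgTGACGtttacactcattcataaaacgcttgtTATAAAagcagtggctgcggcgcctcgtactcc
TGACG was present in all 4, and the full TGACGTCA was found in DUSP1 alone of these, starting 125 bases before its start. TATAAA stood 30 bases before the start of DUSP1 and of FOSB and 33 bases before that of FOS, and none was found for JUN. The NR4A2 promoter was not in the table used. ATF3, the gene with the next largest difference after these 5, is not printed, and its promoter had no match to TGACG or TATAAA.

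After normalization, frozen and fresh profiles were close across most genes. The number of detected probes was 17400, 17478 and 17322 on the frozen arrays, against 17339, 17679 and 16898 on the fresh arrays, and an exact two-sided permutation test gave p = 0.8, with 0.1 the smallest p that 3 against 3 arrays allow. The root mean square distance between arrays over kept probes was 0.237 log2 units on average between frozen and fresh arrays (9 pairs, 0.220 to 0.250), against 0.201 among frozen and 0.191 among fresh arrays. The median difference over all genes was 0.01, and 10139 of 10669 genes had a 95% interval lying wholly within 1.5-fold either way. Quantile normalization gave every array the same distribution of values, which holds the median difference near 0. A shift shared by all transcripts could therefore not be seen. For 99.8% of genes the interval lay within 2-fold. The middle 95% of gene differences ran from -0.35 to 0.29, and the full range was asymmetric, from -0.93 to 3.73. Monocyte and myeloid markers LYZ, CD14, CSF1R, CYBB, SPI1 and MPO were detected on all 6 arrays. Markers of T cells (CD3D, CD3E, CD8A), red cells (HBB, HBA1), platelets (PF4), epithelium (EPCAM, KRT5), endothelium (CDH5, VWF) and fibroblasts (COL1A1, COL3A1) were detected on 0, and the B cell gene MS4A1 was detected on 1 frozen and 3 fresh arrays. Other members of these lists did pass the detection filter, 3 of 18 T and NK cell genes on the array, 4 of 9 B and plasma cell genes, 2 of 13 erythroid and platelet genes, and 4 of 20 epithelial, endothelial and fibroblast genes. Limma called 0 of them, with 1, a B or plasma cell gene, at an unadjusted p under 0.05.

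Of the 10669 genes, 114 were called (1.07%), 52 higher (0.487%) and 62 lower (0.581%) in frozen cells. The higher genes held the large differences. 37 called genes differed by 1.5-fold or more (0.347%). 12 of them were 2-fold or more higher (0.112%), whereas 0 called genes were 2-fold or more lower (0.00%). All 114 called genes had frozen and fresh arrays that did not overlap, as did 23.7% of all genes. In probes the count was 200 (1.15%), 88 higher (0.505%) and 112 lower (0.643%), of which 66 differed by 1.5-fold or more (0.379%). The probe count fell to 66, with 41 higher and 25 lower, when the spread was estimated from the 6 arrays alone. Median centring in place of quantile normalization gave 308 probes with the split turned, 201 higher and 107 lower. The count was 111, 63 and 112 without frozen replicate 1, 2 or 3, 78, 51 and 81 without fresh replicate 1, 2 or 3, and 126 and 128 without replated replicate 2 or 3, which enter only through the shared spread.

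**Figure D1:**
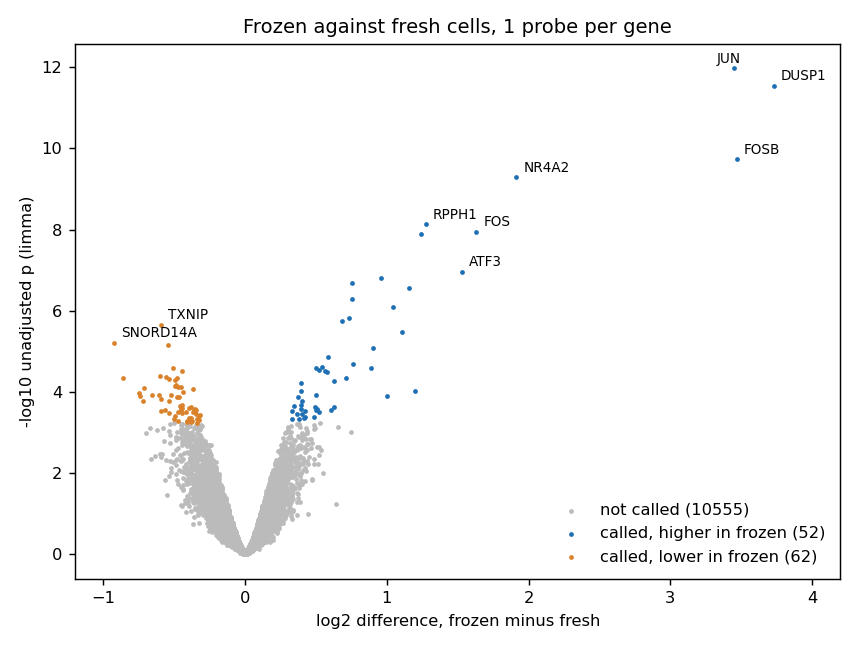
Each point is 1 gene, with the frozen minus fresh difference (log2) on the horizontal axis and the unadjusted limma p (-log10) on the vertical axis, and coloured points are called genes. DUSP1, FOSB and JUN lie apart at differences of 3.45 to 3.73, and no gene lies further left than SNORD14A at -0.93.

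The genes with the largest increases were DUSP1 and the AP-1 subunits FOSB and JUN, each more than 10-fold higher in frozen cells. DUSP1, the dual-specificity phosphatase that switches off p38 and JNK, read 2845, 2593 and 2807 in frozen cells, against 179, 214 and 231 in fresh cells. Its lowest frozen array was far above its highest fresh array, and the difference was 3.73 ± 0.11 (SE; 95% interval 3.49 to 3.97; adjusted p = 2.50e-08), a 13.3-fold increase. FOSB, which pairs with JUN proteins in AP-1, read 2274, 2278 and 2519 in frozen cells, against 159.9, 237 and 255 in fresh cells. The groups were again far apart, at 3.47 ± 0.15 (adjusted p = 1.08e-06). JUN, the AP-1 subunit that JNK phosphorylates, read 2126, 2243 and 2422 in frozen cells, against 206, 192 and 225 in fresh cells. This was a difference of 3.45 ± 0.09 (adjusted p = 1.85e-08), with little spread in either group.

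FOS was already bright in fresh cells. It read 3124, 3493 and 3498 in frozen cells, against 945, 1135 and 1201 in fresh cells, with no overlap and a difference of 1.63 ± 0.10 (3.09-fold; adjusted p = 2.73e-05). ATF3, a stress-induced member of the ATF family that can dimerize with JUN, read 128, 146 and 105 in frozen cells, against 39.8, 46.9 and 43.5 in fresh cells, a difference of 1.53 (2.89-fold; adjusted p = 0.000173). JUND, the AP-1 subunit expressed in resting cells, read 5663, 5542 and 4883 in frozen cells, against 3401, 3336 and 3262 in fresh cells. Its groups did not overlap, and its difference was 0.68 (1.61-fold; adjusted p = 0.0014). The AP-1 list had 11 tested members, of which these 5 were called higher and 0 lower, beside 0.487% and 0.581% of all genes. The list median was 0.44 against 0.01 over all genes. JUNB was at 0.44 (adjusted p = 0.122) and did not pass. MAFF, a small MAF protein, lay in the other direction at -0.45 (adjusted p = 0.0508) with arrays that did not overlap, and FOSL1 was at 0.13 with overlapping arrays.

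Orphan nuclear receptors, KLF factors and EGR1 formed the next group. NR4A2, an orphan nuclear receptor induced as an early gene, read 279, 281 and 292 in frozen cells, against 74.2, 75.04 and 77.3 in fresh cells. The spread in each group was small beside the difference of 1.91 ± 0.09 (3.76-fold; adjusted p = 2.25e-06). A second NR4A2 probe, at 1.69, was detected on all 3 frozen arrays and on no fresh array. It entered the test only through the frozen arrays, where it is high, so its call is a description. NR4A1 and NR4A3 were detected on 0 of the 6 arrays. KLF2, a factor that restrains monocyte activation, read 463, 498 and 466 in frozen cells, against 224, 261 and 251 in fresh cells (difference 0.96, adjusted p = 0.00022). KLF6 was at 0.71 (adjusted p = 0.0143), with 782, 887 and 689.8 in frozen cells, against 415, 509 and 517 in fresh cells, and its call was lost without frozen replicate 2 and in the fit on the 6 arrays (highest adjusted p = 0.0568). KLF4, which drives monocyte differentiation, was at 0.60 (adjusted p = 0.0349) and kept its call in 10 of 20 alternatives.

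EGR1, a zinc finger factor induced by the ERK pathway, read 4011, 5139 and 4169 in frozen cells, against 2193, 2462 and 2459 in fresh cells. The lowest frozen array was above the highest fresh array, and the difference was 0.90 ± 0.11 (1.86-fold; adjusted p = 0.00427). Of 12 tested EGR, NR4A and KLF genes these 5 were called higher and 0 lower, beside 0.487% and 0.581% of all genes. Their list median was 0.54. EGR3 read 104, 98.0 and 40.5 in frozen cells, against 55.9, 47.2 and 41.2 in fresh cells. These arrays overlapped, with the third frozen array in the fresh range (0.64, adjusted p = 0.303). IER2 was at 0.48 (adjusted p = 0.110), and MYC, an early gene of growth factor signalling, was at -0.10 (95% interval -0.28 to 0.07). A second MYC probe was at -0.33 and was not called.

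**Figure D2:**
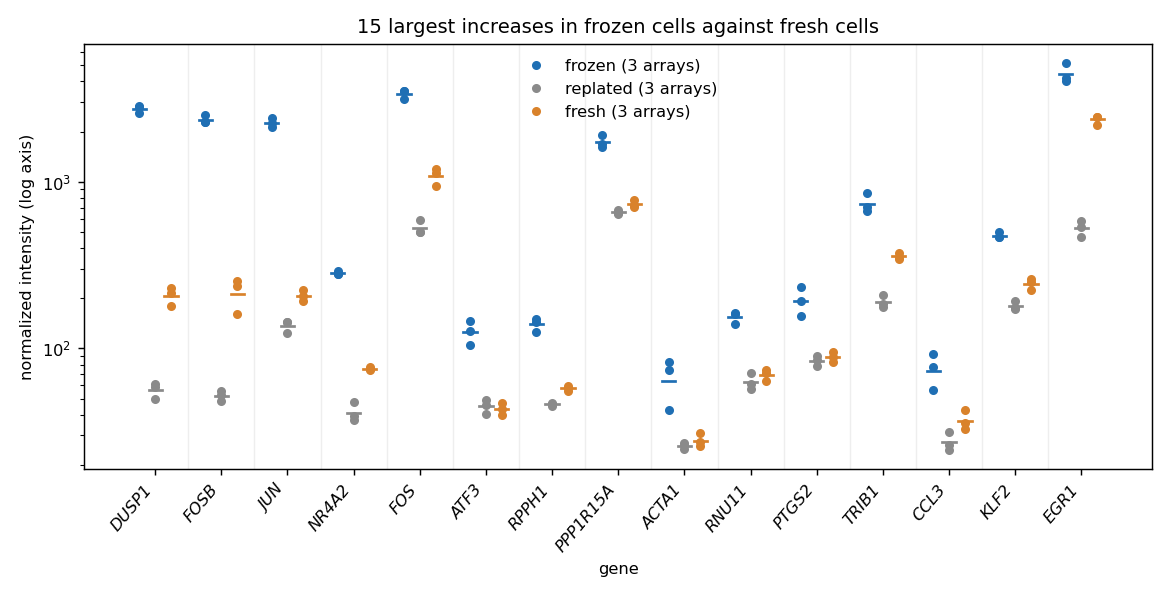
Normalized intensity (log axis) of called increases on every array, with frozen, replated and fresh arrays side by side for each gene and a bar at the mean of the log2 values. Frozen arrays lie above all fresh arrays for each gene shown, and for DUSP1 and FOSB the replated arrays lie below the fresh ones.

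Stress-induced regulators formed a further group. PPP1R15A (GADD34), which brings phosphatase 1 to eIF2 and restores translation after stress, read 1692, 1915 and 1607 in frozen cells, against 720.4, 779 and 704 in fresh cells. The groups were well apart at 1.24 ± 0.08 (2.36-fold; adjusted p = 2.73e-05). TRIB1, a pseudokinase that targets C/EBP factors for degradation, read 701, 861 and 669 in frozen cells, against 345, 375 and 355 in fresh cells (difference 1.05, adjusted p = 0.000732). CSRNP1, a nuclear protein induced by AXIN1, read 406, 458 and 420.4 in frozen cells, against 251, 245 and 265 in fresh cells (0.75, adjusted p = 0.000513). CCN1, a secreted early protein, was at 0.63 (adjusted p = 0.0328), and its call was lost in 11 of 20 alternatives (highest adjusted p = 0.102), among them those without frozen replicate 1 or 2 or any 1 fresh replicate. In this list 4 of 12 tested genes were called higher and 0 lower, beside 0.487% and 0.581% of all genes. GADD45B at 0.52 (adjusted p = 0.0846) and SGK1 at 0.43 (adjusted p = 0.139) did not pass, although neither overlapped between states.

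The brakes on MAP kinase signalling were not called as a group. Among 15 tested MAP kinase phosphatases and Sprouty proteins DUSP1 was the only gene called, the list median was 0.08, and 12 members had intervals inside 1.5-fold. DUSP5, a nuclear phosphatase of ERK, read 169.7, 172 and 169 in frozen cells, against 118, 133 and 132 in fresh cells, without overlap (0.42, adjusted p = 0.0663). DUSP6, the cytoplasmic ERK phosphatase, was at -0.22 with overlapping arrays (adjusted p = 0.579). The kinases themselves (22 tested genes of the MAP kinase cascade) had 0 calls in limma, with 4 at an unadjusted p under 0.05, and all 22 intervals lay inside 1.5-fold. The 11 early genes of mRNA decay and growth arrest also had 0 calls, with 6 at an unadjusted p under 0.05 and all 11 intervals inside 1.5-fold. Among these, ZFP36, which destabilizes AU-rich transcripts, read 2757, 2500 and 2133 in frozen cells, against 1981, 2029 and 1983 in fresh cells, at 0.29 (adjusted p = 0.128).

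In all, 15 of 61 early response genes outside the kinase cascade were called higher and 0 lower, beside 0.487% of all genes called higher. Leaving out single arrays gave 12 to 17, and the fit on the 6 arrays gave 12. The early lists were drawn up with earlier results of these data known, so this share describes them and tests no enrichment. The called higher genes were short in genomic span. The 52 called higher genes had a median span of 7.04 kb in RefSeq, 32 of them (61.5%) under 10 kb, against 41.9% of the 62 called lower genes. For all genes tested the median was 28.5 kb, with 22.5% under 10 kb. The part of gene length in these results was not tested.

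Promoter matches were counted over 300 bases (250 before and 50 after the start) for genes with an entry, on both strands, and each TGACGTCA counts as a TGACG match too. TGACG was found in 15 of 39 called higher genes (38.5%), in 20 of 49 called lower genes (40.8%) and in 34.7% of the 8780 tested genes. Within the called early genes it was in 8 of 12 (66.7%). The full TGACGTCA was in 4 of 39 called higher genes (10.3%), 1 of 49 called lower (2.04%) and 3.33% of tested genes. TATAAA was in 10 of 39 (25.6%), 2 of 49 (4.08%) and 5.79% of tested genes. TGANTCA, the AP-1 site, was in 0 of the 39 called higher genes and 4.19% of tested genes. The CArG box bound by serum response factor was in 4 of 39 (10.3%) and 1.07% of tested genes, and GCGNGGGCG, the EGR site, in 8 of 39 (20.5%) and 15% of tested genes. GAANNTTC, a unit of the heat shock element, was in 3 of 39 (7.69%) and 4.78% of tested genes, and the NF-kB site in 1 of 39 (2.56%) and 6.37%. ATF3 had no match to any of these motifs in the window. These counts describe letters in a window and say nothing of binding.

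Of 6 tested RNAs of RNase P, the spliceosome and the signal recognition particle, RPPH1 and RNU11 were called higher, and the other 4 did not pass. Over all genes 0.487% were called higher. The list median was 0.05, 3 of 6 differences were positive, and the lowest was -0.34. RPPH1, the RNA of RNase P that trims tRNA precursors, read 149.8, 125 and 144 in frozen cells, against 59.8, 55.6 and 57.5 in fresh cells. The lowest frozen array was more than 2-fold above the highest fresh array, and the difference was 1.28 ± 0.08 (2.42-fold; adjusted p = 2.14e-05). RNU11, an RNA of the minor spliceosome, read 139, 161 and 164 in frozen cells, against 63.3, 73.8 and 71.0 in fresh cells (1.16, adjusted p = 0.000308). Whether these probes read the mature RNAs, their precursors or other forms was not tested.

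Small nucleolar and Cajal body RNAs, which guide chemical modification of ribosomal and spliceosomal RNA, were called in both directions. Of 36 tested, 4 were called higher and 3 lower, and 23 had intervals inside 1.5-fold. SCARNA9 read 709, 723 and 715 in frozen cells, against 422, 416 and 434 in fresh cells, with very little spread (0.76 ± 0.06, adjusted p = 0.000261). SNORD68 was at 0.58 (adjusted p = 0.00646). SNORD21 at 0.62 (adjusted p = 0.0156) and SNORD25 at 0.50 (adjusted p = 0.0349) kept their calls in 14 of 20 and 9 of 19 alternatives. SNORD14A, which carried the largest decrease of any named gene, read 70.0, 74.7 and 94.5 in frozen cells, against 153, 136 and 164 in fresh cells. Its arrays did not overlap, at -0.93 ± 0.11 (1.90-fold lower; adjusted p = 0.00352). SNORD14D fell to 42.6, 39.6 and 56.2 in frozen cells, against 77.7, 71.6 and 81.0 in fresh cells (-0.75, adjusted p = 0.0221), and SNORD30 was at -0.53 (adjusted p = 0.0234), called in 13 of 20 alternatives.

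Most of these RNAs are cut from introns of host genes, so host and guide can be compared. RefSeq places SNORD14A within RPS13, whose own difference was -0.01, and SNORD14D within HSPA8, at -0.11. SNORD14C, also within HSPA8, was at 0.19 (adjusted p = 0.190). SNORD21 lies within RPL5, at 0.03, and SNORD68 within RPL13, at -0.26 (adjusted p = 0.148). 4 guides within SNHG1 differed in sign, with SNORD25 at 0.50, SNORD30 at -0.53, SNORD31 at -0.48 and SNORD22 at -0.34 (adjusted p = 0.0615 for SNORD31 and 0.108 for SNORD22, neither called). A probe inside an intron does not tell a mature guide RNA from unspliced host RNA. The median absolute difference was 0.27 over 35 tested snoRNA genes, against 0.09 over 10394 protein-coding genes.

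**Figure D3:**
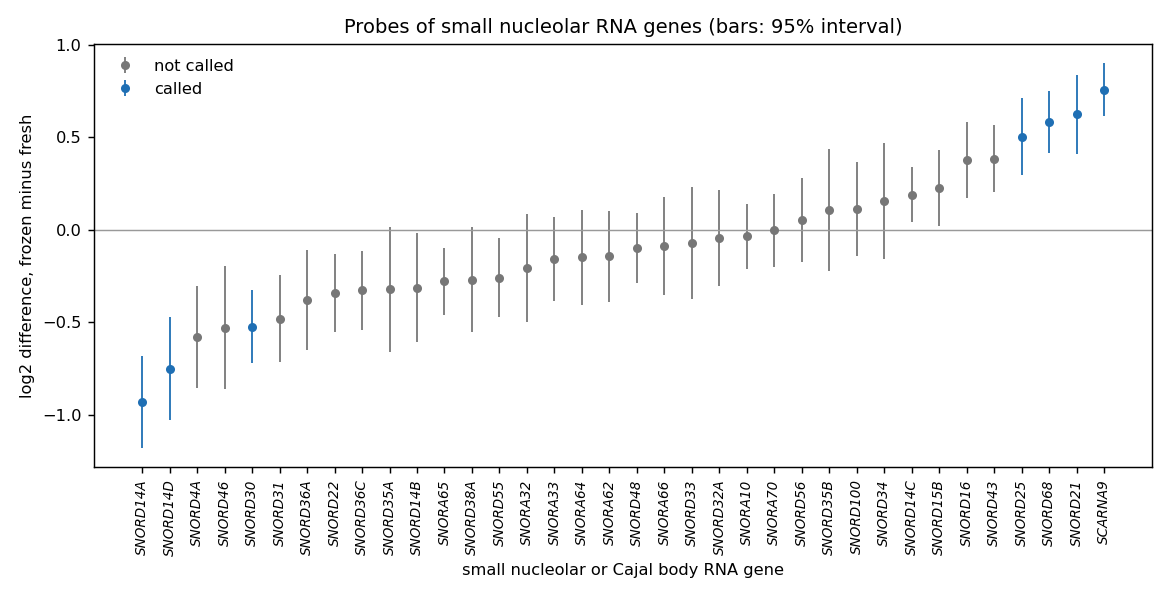
Frozen minus fresh difference (log2) with its 95% interval for each tested small nucleolar or Cajal body RNA, ordered by the difference, with called members coloured. SCARNA9 stands highest at 0.76 and SNORD14A lowest at -0.93, and the intervals in the middle of the order cross 0.

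Prostaglandin and chemokine genes included a pair of calls. PTGS2, the inducible cyclooxygenase COX-2, read 193, 233 and 157 in frozen cells, against 83.2, 89.3 and 94.8 in fresh cells, with no overlap (1.11 ± 0.13, adjusted p = 0.00225), although a second PTGS2 probe was at 0.16 and was not called. CCL3, a chemokine that attracts monocytes, read 77.0, 92.2 and 56.2 in frozen cells, against 42.6, 35.9 and 32.8 in fresh cells (1.00, adjusted p = 0.0235). That call was lost when frozen replicate 1 or 2 or fresh replicate 2 or 3 was left out and in the fit on the 6 arrays (highest adjusted p = 0.0886). TNF read 185, 189 and 139 in frozen cells, against 104, 139.8 and 113 in fresh cells, where the third frozen array lay in the fresh range (0.52, adjusted p = 0.120). CXCL8 was at 0.37 (adjusted p = 0.240) and IL1B at -0.08 (95% interval -0.38 to 0.22). In this list of 15 tested genes the other 13 did not pass. Of 15 NF-kB subunits and inhibitors, NFKBIZ was called at 0.42 (adjusted p = 0.0423), a call lost in 14 of 20 alternatives and whichever array was left out (highest adjusted p = 0.125), and NFKBIA, the feedback inhibitor of NF-kB, was at 0.13 with overlapping arrays.

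Other genes called higher came from several lists. ACTA1, skeletal muscle actin and a target of serum response factor, read 83.0, 74.0 and 42.8 in frozen cells, against 25.8, 27.3 and 31.0 in fresh cells. It was detected on all frozen arrays and on no fresh array, so it was at least 2.10-fold higher. It entered the test only through the frozen arrays, where it is high, so its adjusted p of 0.0205 is a description. The call was lost without any 1 of the 3 fresh arrays or of frozen replicates 1 and 2 (highest adjusted p = 0.0748). The other 25 tested actin and serum response factor genes had 0 calls. TSC22D3 (GILZ), a leucine zipper protein induced by glucocorticoids, read 225, 207 and 216 in frozen cells, against 93.2, 136 and 125 in fresh cells (0.89, adjusted p = 0.0103), and a second probe was called at 0.65. H2AC20, a histone H2A gene, was at 0.40 and APOE, the macrophage lipoprotein, at 0.33, with calls lost in 9 of 20 and 16 of 19 alternatives, in both genes without any 1 of the 6 compared arrays (highest adjusted p = 0.0952 and 0.130). GPR183, a receptor for oxysterols, and RGS2, an inhibitor of Gq signalling, were picked out after their values were seen. GPR183 read 374, 418 and 348 in frozen cells, against 222, 232 and 231 in fresh cells (0.73, adjusted p = 0.00123). RGS2 read 272, 308 and 245 in frozen cells, against 175, 151 and 159.7 in fresh cells (0.76, adjusted p = 0.00869).

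Decreases were smaller and spread over many functions. TXNIP, an inhibitor of thioredoxin and of glucose uptake, read 1194, 1147 and 1158 in frozen cells, against 1786, 1812 and 1683 in fresh cells. Both groups were tight and far apart at -0.59 ± 0.06 (1.51-fold lower; adjusted p = 0.00165). CCR2, the receptor for the monocyte chemokine CCL2, read 633, 627 and 590.3 in frozen cells, against 889.6, 923 and 892 in fresh cells (-0.55 ± 0.07, adjusted p = 0.00388), while a second CCR2 probe was at -0.16 and was not called. DDIT4 (REDD1), a stress-induced inhibitor of mTORC1, read 61.2, 78.3 and 66.1 in frozen cells, against 101, 107 and 103 in fresh cells (-0.60, adjusted p = 0.0134), a call lost without fresh replicate 2 and in the fit on the 6 arrays (highest adjusted p = 0.0565). ZDHHC11, a palmitoyltransferase, was lower at -0.51 (98.0, 99.8 and 96.4 in frozen cells, against 150.4, 130.1 and 139 in fresh cells; adjusted p = 0.0103) and was picked out after its values were seen.

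Several decreases rested on 1 probe of a gene. TAF1D, part of the SL1 complex of RNA polymerase I and host of small nucleolar RNAs, read 47.0, 71.6 and 51.9 in frozen cells, against 102, 98.3 and 105 in fresh cells (-0.86, adjusted p = 0.0143), whereas its other kept probe was at 0.04. POFUT1, which adds fucose to Notch, was at -0.61 with its other probe at 0.03. CDC14B, a dual-specificity phosphatase, was at -0.57 with other probes at -0.05 and 0.08. HNRNPH2, RPS15 and PSMD12, at -0.48, -0.36 and -0.34, likewise had other probes that were not called, between -0.05 and 0.16. Across all genes, 27 called genes had 2 or more kept probes, and 11 of them had a probe of opposite sign. In 2 of them (NR4A2 and TSC22D3) another probe was called in the same direction. That NR4A2 probe passed the filter only through the frozen arrays.

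HNRNPA3, an RNA-binding protein of the hnRNP family, read 871, 661 and 728 in frozen cells, against 1210.3, 1138 and 1336 in fresh cells, without overlap (-0.71, adjusted p = 0.0183). It and HNRNPH2 were the 2 called members of 20 tested hnRNP genes, beside 1.07% of all genes called. SDC2, a heparan sulfate proteoglycan, read 125, 115 and 92.6 in frozen cells, against 171, 184 and 165 in fresh cells (-0.66, adjusted p = 0.0233). MIR181A2HG, the host transcript of a miR-181 cluster, read 94.3, 74.9 and 90.6 in frozen cells, against 139, 148 and 147 in fresh cells (-0.75, adjusted p = 0.0235). USP12, a deubiquitinase, was at -0.72, HDHD2 and C2orf68 were both at -0.59, B3GNT8, a glycosyltransferase, was at -0.56, and MRPL38 of the mitochondrial ribosome was at -0.46. The calls for POFUT1, CDC14B, HNRNPA3, HNRNPH2, RPS15, PSMD12, SDC2, MIR181A2HG, USP12, HDHD2, C2orf68, B3GNT8, MRPL38 and SNORD14D were lost without frozen replicate 2, among others, and that for TAF1D without any 1 fresh array. Their highest adjusted p over all alternatives ran from 0.0584 for B3GNT8 to 0.117 for PSMD12.

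**Figure D4:**
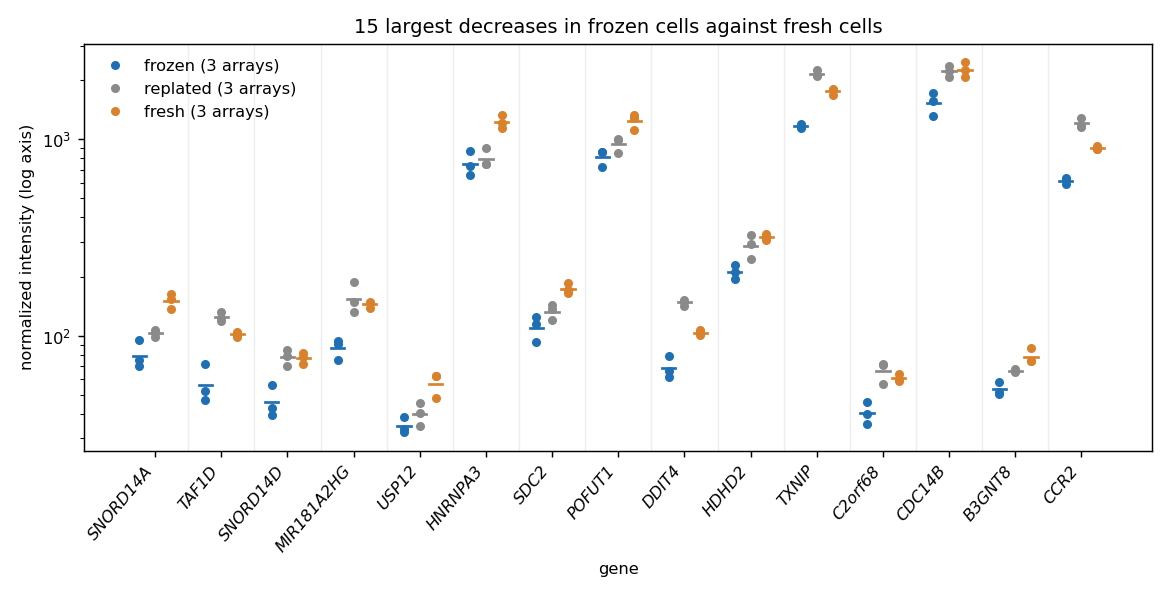
Normalized intensity (log axis) of called decreases on every array, with frozen, replated and fresh arrays side by side for each gene and a bar at the mean of the log2 values. Frozen arrays lie below all fresh arrays for each gene shown, and the frozen and fresh arrays of TXNIP and CCR2 form tight groups.

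Genes of the heat shock and cold-regulated lists differed little, as did most genes. Among all 10669 genes 1.07% were called, and 10139 had a 95% interval inside 1.5-fold. A short list without calls is therefore not set apart from other genes. Of 24 tested heat shock and chaperone genes limma called 0, with 3 at an unadjusted p under 0.05, 23 had intervals inside 1.5-fold, and the list median was 0.00. HSPA8, the constitutive cytosolic HSP70, read 13315, 13821 and 12559.7 in frozen cells, against 15390.0, 13727 and 13623 in fresh cells, with overlapping arrays (-0.11, 95% interval -0.29 to 0.07). HSPA1A, the inducible HSP70, was detected on 0 arrays, and the inducible HSPA6 was detected on 3 frozen and 2 fresh arrays. Cold-regulated RNA genes had 0 calls among 12, with 1 at an unadjusted p under 0.05 and all 12 intervals inside 1.5-fold, and CIRBP, the cold-inducible RNA-binding protein, was at -0.09 (95% interval -0.28 to 0.09). RBM3 had no named probe.

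The unfolded protein response had 0 calls in 19 tested genes, NRF2 and antioxidant genes 0 in 18, metallothioneins 0 in 9 and hypoxia genes 0 in 14, with every interval inside 1.5-fold. Apoptosis regulators had 0 calls in 19, p53 targets 0 in 12 and interferon-stimulated genes 0 in 26, with 1 interval in each list reaching past 1.5-fold. Over the 27 lists with 0 calls, these included, 74 of 467 tested genes (15.8%) were at an unadjusted p under 0.05, beside 17.3% of all genes. ATF4, the main factor of the integrated stress response, was at 0.07 and its target DDIT3 (CHOP) at 0.23 (adjusted p = 0.221). Other kept ATF4 probes were at -0.18 and -0.14 and were not called. CDKN1A, the p53 target p21, was at -0.16 (adjusted p = 0.277), and the haem oxygenase HMOX1 was at -0.21 with overlapping arrays (adjusted p = 0.471). Among all 220 tested stress genes 4 were called higher (PTGS2, CCL3, NFKBIZ, TSC22D3) and 2 lower (TXNIP, DDIT4). Over all genes 0.487% were called higher and 0.581% lower. The stress-induced ATF3 (1.53) and PPP1R15A (1.24), both called higher, were counted with the early genes and not here.

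Growth and housekeeping genes lay close together, as did most genes. Cytosolic ribosomal proteins had 1 call (RPS15) in 75 tested genes with 74 intervals inside 1.5-fold, oxidative phosphorylation subunits 0 in 68, glycolysis 0 in 18, sterol synthesis 0 in 23, and genes of G1 and S phase 0 in 30. Of 32 genes of G2 and M phase, 0 were called and 30 intervals lay inside 1.5-fold. Mitochondrial ribosomal proteins had 71 of 77 intervals inside and 1 call, and histones 24 of 27 and 1 call. The reference genes GAPDH, B2M and TBP were at 0.01, -0.05 and 0.06, and ACTB, beta actin, was at -0.18 (95% interval -0.33 to -0.02; adjusted p = 0.228). Other kept probes, none of them called, were at -0.19 and 0.03 for GAPDH, -0.25 for B2M, and -0.15 and -0.25 for ACTB. Under median centring in place of quantile normalization, which put the median of all probes at 0.04, the differences of ACTB (0.10) and B2M (0.01) were positive, as were those of LYZ (0.02) and CSF1R (0.01). Among monocyte and macrophage markers 1 of 32 was called higher (APOE) and 1 lower (CCR2). LYZ, lysozyme, read 2507, 2426 and 2428 in frozen cells, against 2534, 2424 and 2439 in fresh cells (-0.01, 95% interval -0.15 to 0.13). A second LYZ probe was at 0.26 and was not called. CSF1R was at -0.02, MPO at 0.06 and CD14 at 0.24 (adjusted p = 0.130).

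**Figure D5:**
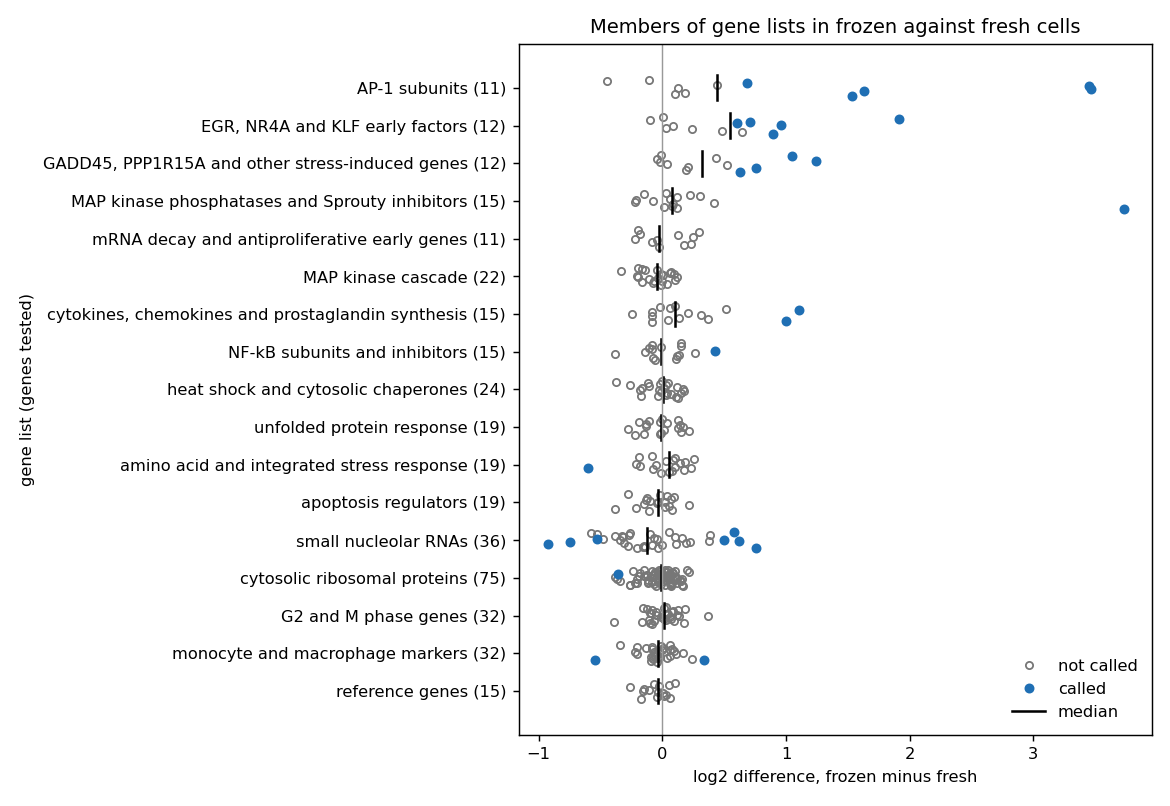
Frozen minus fresh difference (log2) of each tested member of the gene lists, 1 row per list, with a mark at the list median and called members coloured. Members of the early response lists reach 3.73, whereas chaperone, ribosomal and reference genes gather around 0.

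Against replated cells, which share the frozen arrays with the comparison above, the early genes lay further apart. DUSP1 read 61.4, 49.8 and 58.5 in replated cells, so the frozen minus replated difference was 5.61, beside 3.73 for frozen minus fresh. For FOSB the differences were 5.51 and 3.47, for FOS 2.67 and 1.63, for NR4A2 2.79 and 1.91, and for TRIB1 1.96 and 1.05. EGR1 read 537, 466 and 585 in replated cells, a frozen minus replated difference of 3.07 beside 0.90 against fresh cells. For ATF3 they were 1.48 against replated cells and 1.53 against fresh cells. GPR183 read 350.4, 351 and 366 in replated cells, within the range of the frozen arrays, and its frozen minus replated difference was 0.09 (adjusted p = 0.458). Among the decreases, TXNIP was at -0.89 against replated cells and -0.59 against fresh cells, DDIT4 at -1.12 and -0.60, and CCR2 at -0.97 and -0.55. HNRNPA3 read 751, 903 and 749 in replated cells, a difference of -0.09 against replated cells beside -0.71 against fresh cells. Over all genes, frozen minus replated calls numbered 625 higher (5.86%) and 717 lower (6.72%).

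Detection changed state for few probes. Of the kept probes, 69 were detected on all 3 frozen and no fresh array, 56 on all 3 fresh and no frozen array, and 15146 on all 6. Limma called 11 of the 69 and 10 of the 56. These probes passed the filter only through the state where they are brighter, so their calls are descriptions. The counts of calls and of promoter matches above include them, ACTA1 among them. No gene symbol was given for 3507 kept probes, and 50 of these were called, 28 of them higher. Over all kept probes 1.15% were called, 0.505% higher. The unnamed probe with the largest increase (ILMN_1887216) read 206, 189.7 and 153 in frozen cells, against 49.5, 48.3 and 42.9 in fresh cells (1.95), and the one with the largest decrease (ILMN_1771320) read 76.1, 83.2 and 72.7 in frozen cells, against 171, 147 and 191 in fresh cells (-1.13).

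Calls differed in how firmly they held. 23 of the 114 genes (19 higher and 4 lower) were called in the same direction in every alternative that tested them. The 19 were DUSP1, FOSB, JUN, FOS, JUND, ATF3, NR4A2, EGR1, KLF2, PPP1R15A, TRIB1, CSRNP1, PTGS2, TSC22D3, GPR183, RPPH1, RNU11, SCARNA9 and SNORD68. The 4 were SNORD14A, TXNIP, CCR2 and ZDHHC11. Of the 114, 36 (26 higher and 10 lower) were called in the fit on the 6 arrays.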

How the data were processed

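THP-1 transcripts were hybridised to Illumina bead arrays (QIAGEN miRNeasy extraction and Ambion MessageAmp labelling, per the labels' protocols), with groups and replicate numbers from the sample titles. Per the file headers, the deposited table holds non-normalized signal, a linear intensity, for 48803 probes. Its deposited detection column behaved as a score of 1 minus p, since it never fell along its own array's signal (0 falls, against at least 984 along another array's). A deposited table of the authors' processed intensity served as an alternative: its rank correlation with the signal of the same array was 1, its column medians were 5.039 to 5.064, and the sources used here do not say how it was made. A rank correlation gives the direction and not the scale, which was taken as linear, and no centring was seen. Its sorted columns lay within 0.097% of the largest value from their mean, so the arrays shared nearly the same distribution.

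Background was corrected and values quantile-normalized over 9 arrays with limma 3.58.1 (neqc, normexp offset 16, which understates folds of dim probes) in R 4.3.3. Kept probes had a score above 0.95 on at least 3 of the 6 arrays. lmFit and eBayes were fitted on log2 intensity over all 9 arrays (residual df 6, prior df 4.59), with Benjamini-Hochberg adjustment over 17413 probes and a call at 0.05. The array annotation gave 27578 probes 1 symbol, 13 several and 21212 none. Symbols were updated by Entrez ID (27541) or accession (12), or kept (25), with the GRCh38.p14 gene table. A probe below detection on every array of 1 state has only a bound, set against the lowest signal still detected there. The comparison, gene lists and motifs were chosen with earlier results of these data known. Named were the 15 largest increases and decreases among called genes without overlap, called list members and fixed genes, and genes outside this rule are marked in the text, belong to a count of 5 or fewer, or are uncalled list members picked as examples after their values were seen. The method was tested on simulated data. Alternatives covered background, normalization, filter, samples, block, weights, prior, threshold and each array left out, and the number of arrays limits the precision.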

Additional observations from a re-analysis of the deposited data

How the results depend on the processing

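Probes called numbered 200 (88 higher and 112 lower; 114 genes, 66 probes at 1.5-fold or more). An offset of 50 gave 540 (187 and 353; 334 genes, 36 probes), no background correction 718 (246 and 472; 437 genes, 27 probes), a trend and robust prior 830 (277 and 553; 523 genes), and a filter of all 6 arrays at a score above 0.99 gave 352 with 220 lower and 227 genes. Median centring gave 308, with 201 higher and 107 lower. The fit on the 6 arrays gave 66 (41 and 25; 37 genes), and normalizing those 6 alone gave 69 (42 and 27; 39 genes). Thresholds of 0.01 and 0.1 gave 40 and 618 probes. Leaving out 1 array gave 51 to 159 probes (32 to 74 higher, 19 to 85 lower), 27 to 91 genes, 40 to 74 probes at 1.5-fold or more, 15804 to 16387 probes with an interval inside 1.5-fold and 12 to 17 early genes higher. Where an array left 2 in a state, the spread was shared with the other states. Early genes called higher were 15, and 23 with the trend prior. Without a filter 47774 of 48803 probes had an interval inside 1.5-fold, against 16389 of 17413. The causes of these shifts were not tested. The difference in detected probes was 94.7, and -231 at a score above 0.99 (exact permutation p = 0.3), an alternative chosen after seeing the data; the cause was not tested.

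Replicate numbers gave little sign of pairing. The correlation of same-numbered deviations from the state mean was 0.04, -0.00075 and 0.05. By that correlation 2 of 3 frozen arrays were nearest to the fresh array of their own number. By root mean square distance each frozen array was nearest to fresh replicate 2 (0.220, 0.238 and 0.231). With the replicate number as a block 148 probes and 79 genes were called. Of the named genes' alternatives 1019 kept direction and side of the threshold, 186 (24 genes) lost a call, 4 (ACTB and TNF) gained one and 0 turned a called direction. Dim probes lie near the offset, so their folds are understated.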
